A study of Homo sapiens with 6 samples.

Results

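The E2F transcription factors and the RB-like pocket proteins were followed in MOLM-13. This human cell line, grown from an acute myeloid leukaemia, carries a KMT2A-MLLT3 fusion, an internal tandem duplication in FLT3, and has monocytic features. The group was taken by gene symbol: E2F1 to E2F8, RBL1 and RBL2, 10 of the 58735 genes in the deposited count table. All 10 had enough counts to be tested, among 13822 genes tested. MOLM-13 cells treated for 48 h with 3.5 nM 8p, named in the labels as an inhibitor of RET and CDK8, were compared with untreated cells kept in culture for the same 48 h. Each group had 3 libraries, and the series' design text calls them independent biological replicates. The labels give the genotype of all 6 as WT, put the IC50 of 8p at 7 nM, and do not say whether the control cells received a solvent. All 6 libraries come from 1 cell line, so the replicates sample cultures and not donors.

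E2F proteins bind gene promoters, most of them as heterodimers with a DP partner, and turn the genes of DNA replication and cell division on or off. E2F1, E2F2 and E2F3 are known as activators that RB1 restrains; E2F4 and E2F5 act mainly as repressors together with RBL1 (p107) and RBL2 (p130); E2F6 represses through a Polycomb complex without a pocket protein; E2F7 and E2F8 repress without DP or pocket proteins. Cyclin-dependent kinases phosphorylate the pocket proteins and release E2F, and in resting cells RBL2 joins E2F4, DP and the MuvB core in the DREAM repressor complex. Several E2F genes are themselves E2F targets, so their transcripts are cell cycle regulated.

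The promoters of 4 members that fell with 8p, E2F1, E2F2, E2F3 and RBL1, are printed to show the E2F letters that sit close to their starts, and that of E2F4, which also fell, to show a window without them. Each is the 150 bases before the RefSeq transcript start on GRCh38.p14, written 5′ to 3′ on the gene's strand. Capitals mark matches to the E2F motif, searched on both strands as the letters TTTCCCG, as the variant TTTCGCG, further as the variant TTTGCCG and finally as the variant TTTGGCG. The capitals in E2F3 that read CGGGAAA are the motif TTTCCCG on the other strand, and the 12 capitals in E2F1 are a sense TTTCGCG that overlaps an antisense TTTGCCG.
E2F1, chr20:33686386-33686535, minus strand: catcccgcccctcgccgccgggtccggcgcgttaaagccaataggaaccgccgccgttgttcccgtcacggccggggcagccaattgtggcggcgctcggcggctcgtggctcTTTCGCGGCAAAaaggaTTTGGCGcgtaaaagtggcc
E2F2, chr1:23531234-23531383, minus strand: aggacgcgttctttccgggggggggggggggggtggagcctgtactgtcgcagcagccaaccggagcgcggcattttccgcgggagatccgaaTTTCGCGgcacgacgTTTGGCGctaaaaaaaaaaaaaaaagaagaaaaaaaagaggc
E2F3, chr6:20401729-20401878, plus strand: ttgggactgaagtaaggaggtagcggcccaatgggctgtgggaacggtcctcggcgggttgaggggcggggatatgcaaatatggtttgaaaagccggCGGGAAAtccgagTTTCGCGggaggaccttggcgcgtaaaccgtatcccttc
RBL1, chr20:37095998-37096147, minus strand: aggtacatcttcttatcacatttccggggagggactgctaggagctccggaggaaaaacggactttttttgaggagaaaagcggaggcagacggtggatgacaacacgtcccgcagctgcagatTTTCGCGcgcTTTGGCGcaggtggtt
E2F4, chr16:67192005-67192154, plus strand: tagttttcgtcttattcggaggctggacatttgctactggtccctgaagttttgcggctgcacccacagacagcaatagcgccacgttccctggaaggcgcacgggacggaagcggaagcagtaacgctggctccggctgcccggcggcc

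Over the full RefSeq windows of 300 bases, 250 before to 50 after the start, 8 of the 10 members had an entry; E2F5 and E2F8 had none. Counting from the start, E2F1 held 3 matches with first bases at -37, -32 and -20, of which the first and second overlap. E2F2 held 2 matches, at -57 and -42, E2F3 held 2, at -52 and -39, and RBL1 held 2, at -26 and -16. E2F6 also held 2, at -183 and -78, farther from its start. No match stood in the windows of E2F4, E2F7 or RBL2, nor at a second annotated start of E2F3 and of RBL2. Of all 35116 RefSeq windows, 8.67% held at least 1 match and 0.681% held 2 or more. The CCAAT box, bound by NF-Y and searched as CCAAT on both strands, was found 3 times in E2F1, 4 times in E2F3 and 4 times in E2F7, and in 34.6% of all windows. The cell cycle homology region (CHR), the site through which MuvB binds, was searched on both strands as TTTGAA or TTCGAA and was found once in E2F3 and once in RBL2, and in 16.4% of all windows. The RefSeq start used for RBL2 lies 494 bases from the start of the gene in the count table, and those of the others lie within 27 bases of theirs. These are matches of letters only, and binding was not measured here.

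**Figure D1:**
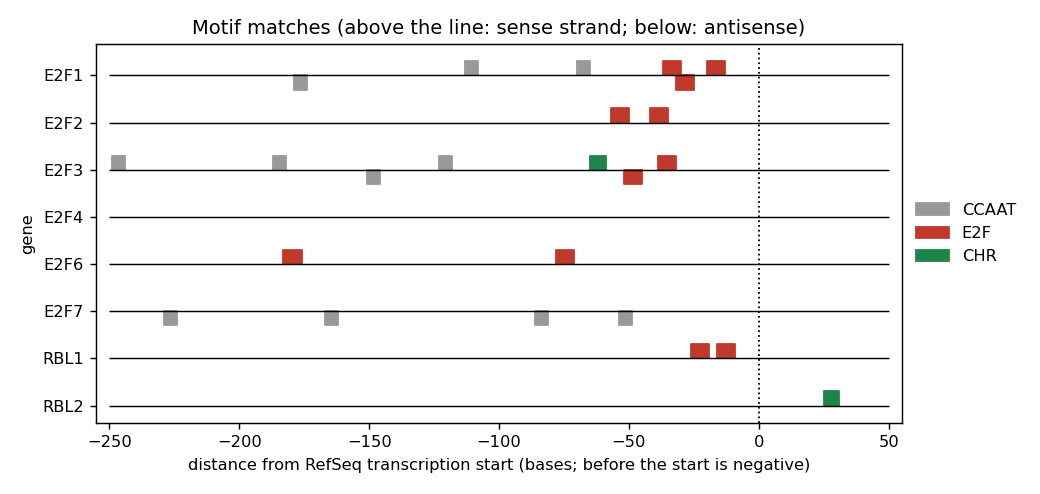
Motif matches in the RefSeq promoter windows of 8 members, by distance from the transcript start in bases, with matches on the sense strand above each line and those on the antisense strand below. E2F matches stand within 60 bases of the start in E2F1, E2F2, E2F3 and RBL1, and E2F4, E2F7 and RBL2 have none.

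Library totals were 14972069 to 16210861 counts with 8p and 18834611 to 23485628 in controls. Mitochondrially encoded genes took 6.42% to 10% of the counts with 8p and 1.64% to 1.91% in controls, a difference that runs with the groups. With these genes left out of the fit, 9 members were called, as with them. The first principal component, 92.5% of the variance, separated the groups, and 8p replicate 2 stood apart from the other 8p libraries on the second, with 3.14%. Without 8p replicate 2, as without any other single library, the same 9 members were called with the same signs. RNA was measured in bulk, so fewer cycling cells and less RNA of a gene per cell cannot be told apart in any of the values.

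With 8p, transcripts of 8 of the 10 members fell, RBL2 alone rose, and E2F5 did not pass the test. The activators E2F1 and E2F2 and the atypical repressors E2F8 and E2F7 fell most, with log2 fold changes of -3.14 to -2.27, and RBL1 followed with a fall of 1.38. E2F4, E2F6 and E2F3 fell by less than 1 on that scale. Genes were called at an adjusted p under 0.05 from edgeR's quasi-likelihood test with Benjamini-Hochberg adjustment over all genes tested. At that threshold 10330 genes, 74.7% of those tested, were called, 37.9% higher and 36.9% lower with 8p, so 9 called members of 10 is close to the background, while 8 lower of 10 stands beside 36.9%. The 5 members that were called and at least 2-fold lower compare with 2421 genes, 17.5%, among all tested. The members' median log2 fold change was -1.07, and that of all tested genes was 0.03. CPM values of 8p and control libraries did not overlap for 9 members, as for 77.0% of the genes tested. CPM here are each gene's counts relative to the library total, scaled by edgeR's TMM factors, which compare 1 gene between libraries; TPM also divide by gene length and are used to compare genes.

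**Figure D2:**
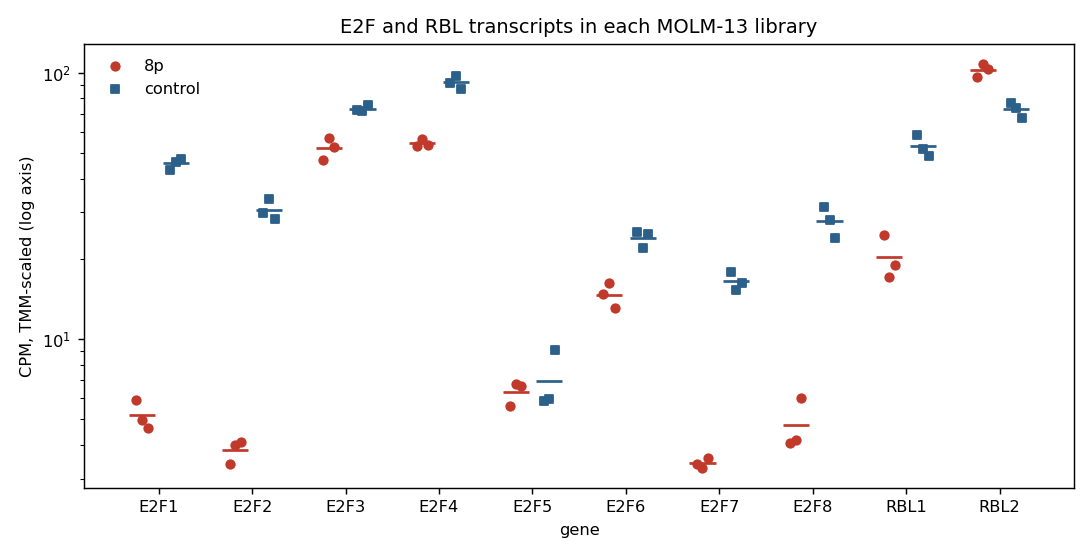
CPM of each member in each library on a log axis, 8p left of control, 1 point per library. The 3 8p libraries of E2F1 lie between 4.66 and 5.92 CPM, below the 3 control libraries at 43.1 to 47.6 CPM, and the groups overlap in E2F5 alone.

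Among the activators, E2F1, which drives entry into S phase and can also induce apoptosis genes, changed most (chromosome 20, 33675683 to 33686404, minus strand). It had 5.92, 4.97 and 4.66 CPM in the 8p libraries, against 43.1, 46.2 and 47.6 CPM in the control libraries. Its 8p libraries are all low, and the groups do not overlap. Its mean was 5.18 ± 0.660 CPM with 8p and 45.6 ± 2.31 CPM in controls (SD, n = 3 each), 8.79-fold lower, with a log2 fold change of -3.14 (SE 0.12, 95% interval -3.39 to -2.88, edgeR adjusted p = 2.61e-12). E2F2 (chromosome 1, 23506430 to 23531220, minus strand), an activator prominent in blood-forming cells, had 3.39, 4.02 and 4.12 CPM with 8p, against 29.9, 33.6 and 28.3 CPM in controls. Every 8p library of E2F2 was far below every control library, and the log2 fold change was -2.99 (SE 0.14, 95% interval -3.28 to -2.70, edgeR adjusted p = 2.32e-11). With 51 to 67 counts of E2F2 and 69 to 89 counts of E2F1 per 8p library, counting error is part of the spread of these values.

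E2F3 (chromosome 6, 20401906 to 20493715, plus strand), whose gene makes an activator form and a shorter form from an internal start, fell far less than E2F1 and E2F2. It had 46.9, 56.6 and 52.5 CPM with 8p, against 72.1, 71.8 and 75.8 CPM in controls. The 8p values are all lower and spread more widely than the control values. The log2 fold change was -0.49 (SE 0.08, 95% interval -0.67 to -0.32, edgeR adjusted p = 6.52e-05). The table sums all transcripts of a gene, so the E2F3 forms could not be separated.

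Of the E2F proteins that work with RBL1 and RBL2, E2F4 fell moderately (chromosome 16, 67192169 to 67198918, plus strand). E2F4 had 53.2, 56.3 and 53.6 CPM with 8p, against 91.4, 97.4 and 86.9 CPM in controls, with no overlap. Its log2 fold change was -0.76 (SE 0.08, 95% interval -0.92 to -0.60, edgeR adjusted p = 2.18e-07). E2F5, the closest relative of E2F4, had 5.59, 6.77 and 6.68 CPM with 8p, against 5.86, 5.98 and 9.09 CPM in controls. The E2F5 groups overlap, with control replicate 3 above the other 5 libraries. Its log2 fold change was -0.13 (SE 0.20, edgeR adjusted p = 0.570) with a 95% interval of -0.55 to 0.29, so changes within that interval are not excluded. Without control replicate 3 the log2 fold change was 0.08 (edgeR adjusted p = 0.723). E2F5 overlaps C8orf59 on the other strand, which had 2099 counts in the 8p libraries and 3350 in the control libraries, 709% and 772% of the counts of E2F5. Whether reads were counted by strand is unknown here, so reads of the E2F5 and C8orf59 pair may not be separable.

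E2F6 (chromosome 2, 11444375 to 11466177, minus strand), the pocket-independent repressor, had 14.7, 16.2 and 13.1 CPM with 8p, against 25.3, 21.9 and 24.8 CPM in controls. All 8p libraries were lower, with a log2 fold change of -0.71 (SE 0.12, 95% interval -0.96 to -0.46, edgeR adjusted p = 5.59e-05). The atypical repressors E2F7 and E2F8 carry a pair of DNA-binding domains and switch off G1/S genes, E2F1 among them, late in S phase. E2F7 (chromosome 12, 77021247 to 77065580, minus strand) had 3.39, 3.30 and 3.58 CPM with 8p, against 17.9, 15.3 and 16.3 CPM in controls. These 8p libraries differ little from each other, and the log2 fold change was -2.27 (SE 0.15, 95% interval -2.59 to -1.95, edgeR adjusted p = 1.77e-09). E2F8 (chromosome 11, 19224063 to 19241620, minus strand) had 4.06, 4.195 and 6.004 CPM with 8p, against 31.3, 27.9 and 23.9 CPM in controls. The spread was wider in both groups than for E2F7 without any overlap, and the log2 fold change was -2.55 (SE 0.16, 95% interval -2.89 to -2.20, edgeR adjusted p = 1.07e-09).

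The pocket proteins moved in opposite directions. RBL1 (chromosome 20, 36996349 to 37095995, minus strand), which is made mainly in cycling cells, had 24.6, 17.1 and 19.0 CPM with 8p, against 58.1, 51.6 and 48.7 CPM in controls. Its 8p libraries all lie below its controls, and 8p replicate 1 is the highest of the 3. The log2 fold change of RBL1 was -1.38 (SE 0.12, 95% interval -1.64 to -1.13, edgeR adjusted p = 4.52e-08). RBL2 (chromosome 16, 53433977 to 53491649, plus strand), the pocket protein of quiescent cells and of DREAM, had 96.0, 107.5 and 103.4 CPM with 8p, against 76.8, 73.8 and 67.4 CPM in controls. All 3 8p libraries of RBL2 are higher, and its mean of 102.3 ± 5.86 CPM with 8p compares with 72.7 ± 4.78 CPM in controls (SD, n = 3 each). The rise was 1.41-fold, a log2 fold change of 0.49 (SE 0.08, 95% interval 0.33 to 0.66, edgeR adjusted p = 3.08e-05). It passed the test of any difference but not a test against a minimum of 1.5-fold (adjusted p = 0.935 with edgeR's glmTreat). RBL2 shares its locus with AKTIP on the other strand, whose counts were 4.8% of those of RBL2 in 8p libraries and 6.4% in controls. Outside E2F5 and RBL2, genes overlapping a member had under 1% of its counts, and the 7 annotated pseudogene copies of members held at most 4 counts each over all libraries.

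**Figure D3:**
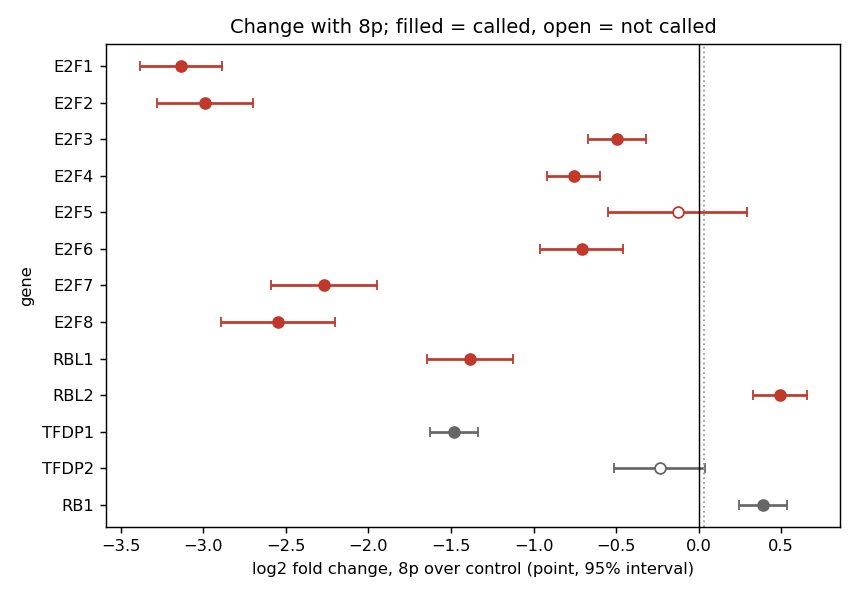
Log2 fold change of each member, 8p over control, with its 95% interval from edgeR; filled points were called and the open point was not. E2F1 and E2F2 lie lowest at -3.14 and -2.99, E2F5 crosses 0, and RBL2 at 0.49 is the only member called above 0.

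Levels per length put the members in a different order in each group. With 8p, E2F4 at 45.2 ± 5.06 TPM and RBL2 at 41.6 ± 5.44 TPM stood highest and overlapped, followed by E2F3 at 30.0 ± 5.04 TPM (SD, n = 3). E2F6 at 10.8 TPM and RBL1 at 10.04 TPM overlapped next, then came E2F1 at 6.14 TPM. E2F8 at 3.39 TPM and E2F5 at 3.19 TPM overlapped, and E2F2 at 2.10 TPM and E2F7 at 1.61 TPM stood last. In controls, E2F4 was also highest at 85.8 ± 7.03 TPM, and E2F1 came second at 60.8 ± 1.83 TPM, above E2F3 at 47.4 TPM. RBL2 at 33.2 TPM overlapped RBL1 at 29.7 TPM in the control libraries. E2F8 at 22.4 TPM overlapped E2F6 at 19.7 TPM, which overlapped E2F2 at 18.8 TPM, and E2F7 at 8.74 TPM and E2F5 at 3.91 TPM were lowest. E2F1 thus stood sixth of the 10 members with 8p and second in controls.

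The make-up of the E2F transcripts was compared within each library. Shares and ratios within a library do not depend on the scaling between libraries, but the summed level does. TPM carry no TMM scaling, and their total includes the mitochondrially encoded genes, so summed TPM do not give the size of the change between groups. Summed over E2F1 to E2F8, the level was 93.2, 116.9 and 97.0 TPM in the 8p libraries, against 272.7, 274.9 and 254.9 TPM in the control libraries. The activators E2F1 to E2F3 made up 36.6%, 37.9% and 37.5% of that sum with 8p, against 45.9%, 47.4% and 49.1% in controls. Every 8p library was below every control library, with a difference of the means of -10.17 percentage points, or -5.063 where CPM without gene length are summed. E2F1 alone made up 6.05 ± 0.978% with 8p and 22.8 ± 1.23% in controls (SD, n = 3 each), while E2F3 made up 29.2 ± 1.52% with 8p and 17.7 ± 0.746% in controls. E2F4 to E2F6 together made up 57.8 ± 1.10% with 8p and 40.9 ± 0.530% in controls, and E2F4 was the largest single part in both groups, at 44.2 ± 0.738% and 32.0 ± 1.40% (8p and control, SD, n = 3 each). E2F7 and E2F8 together made up 4.93 ± 0.873% with 8p and 11.6 ± 1.28% in controls. Shares of 1 sum depend on each other, so a larger share of E2F4 stands beside its lower level.

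**Figure D4:**
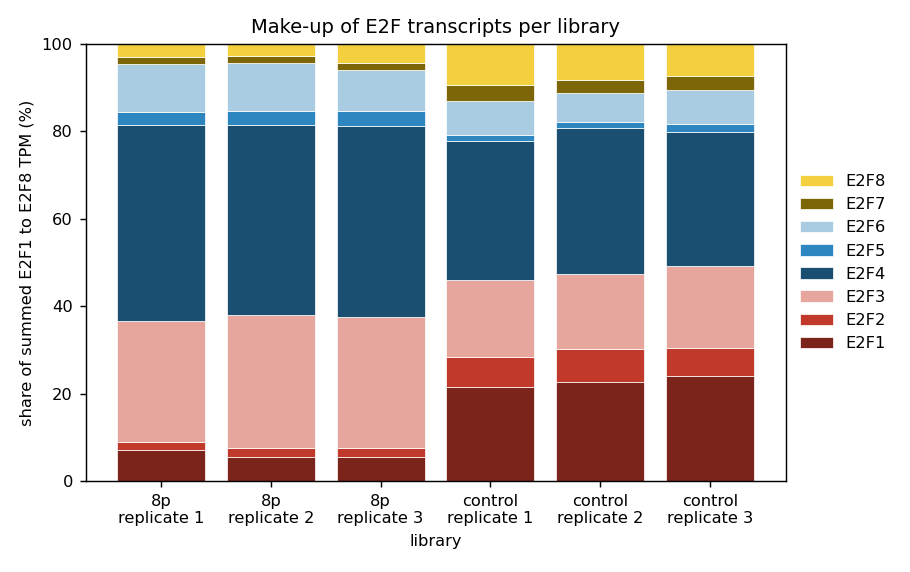
Share of each E2F gene in the summed E2F1 to E2F8 TPM of each library, in percent, 8p libraries left of controls. The E2F1 part is near 6% in the 8p libraries and near 23% in the control libraries, and E2F4 is the largest part in all 6.

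Ratios between members moved in the same libraries. The log2 ratio of RBL2 to RBL1 TPM was 1.66, 2.35 and 2.14 with 8p, against 0.10, 0.22 and 0.17 in controls, a difference of 1.89. RBL1 and RBL2 were thus at like levels in each control library and apart in each 8p library, least in 8p replicate 1. The log2 ratio of E2F1 to E2F4 TPM was -2.65, -2.98 and -3.01 with 8p, against -0.57, -0.56 and -0.35 in controls. The log2 ratio of E2F1 to E2F3 TPM changed sign, at -1.94, -2.46 and -2.45 with 8p, against 0.30, 0.41 and 0.37 in controls. Exact two-sided permutation tests were run on 19 such within-library measures. With 3 libraries against 3 the smallest p they allow is 0.1, and the shares and ratios named here reached it, with 0.106 after Benjamini-Hochberg adjustment over the 19, so none could pass 0.05.

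The dimer partner TFDP1 (DP1), which most E2F proteins need to bind DNA, had 214, 201 and 191 CPM with 8p, against 549, 570 and 576 CPM in controls. It was lower in all 8p libraries, with a log2 fold change of -1.48 (SE 0.07, edgeR adjusted p = 2.53e-11). The second partner, TFDP2, had 14.6, 11.8 and 12.5 CPM with 8p, against 14.7, 14.5 and 16.5 CPM in controls. Its groups overlap by 8p replicate 1, and it did not pass the test at a log2 fold change of -0.24 (edgeR adjusted p = 0.112). Without that library it did, at -0.35 (edgeR adjusted p = 0.0325), as it did with no filter on low counts (edgeR adjusted p = 0.0295). TFDP3 had no counts. RB1, the third pocket protein and the founding tumour suppressor of the family, had 191, 198 and 202 CPM with 8p, against 159, 144 and 148 CPM in controls. In CPM, RB1 was higher in all 8p libraries with a log2 fold change of 0.39 (SE 0.07, edgeR adjusted p = 7.97e-05), which did not pass against a minimum of 1.5-fold (adjusted p = 1.0 with edgeR's glmTreat). In TPM, which carry no TMM scaling between libraries, the RB1 groups overlap. The RB1 values were 83.6, 99.5 and 88.9 TPM with 8p, against 84.4, 75.2 and 74.0 TPM in controls (exact two-sided permutation p = 0.2). RCBTB2 and LPAR6, which overlap it on the other strand, had 24.1% and 14% of its counts. Of the summed TPM of RB1, RBL1 and RBL2, RBL1 made up 7.12 ± 1.51% with 8p and 21.0 ± 0.737% in controls, and RBL2 29.2 ± 1.23% with 8p and 23.6 ± 0.913% in controls (SD, n = 3 each).

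The partners with which E2F and pocket proteins form complexes were counted from lists of known subunits. The counts of these lists stand beside the 74.7% of all tested genes that were called, 37.9% higher and 36.9% lower. Of the 9 genes of the MuvB core and its partners, 4 fell, 1 rose and 4 did not pass the test, with a median log2 fold change of -0.16. These counts are near or below the shares of all tested genes. MYBL2 (B-MYB), which turns MuvB from a repressor into an activator of late cell cycle genes, had 10.3, 11.3 and 8.16 CPM with 8p, against 242.6, 248.7 and 241.2 CPM in controls. That is a log2 fold change of -4.61 (edgeR adjusted p = 1.57e-14), past every member of the E2F family. FOXM1, which joins MuvB and MYBL2 on G2/M genes, fell by 2.45 and LIN9, a core subunit, fell by 2.09 on the log2 scale. FOXM1 overlaps RHNO1 and ITFG2 on the other strand, which had 83.7% and 37.2% of its counts. RBBP4, also a core subunit and named after its value was seen, fell by 0.71 (edgeR adjusted p = 4.96e-08). The core subunits LIN37, LIN52 and LIN54 did not pass the test, at log2 fold changes of 0.46, 0.15 and -0.16. The 1 gene that rose, named after its value was seen, was DYRK1A, the kinase that promotes DREAM assembly by phosphorylating LIN52, at a log2 fold change of 0.53. DYRK1A did not pass against a minimum of 1.5-fold (adjusted p = 0.782 with edgeR's glmTreat).

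Of the 10 Polycomb genes listed for the complex that holds E2F6 (PRC1.6), 7 fell, 2 rose and 1 did not pass the test, with a median log2 fold change of -0.48, where 36.9% of all tested genes were lower. RYBP, a subunit that stimulates histone H2A ubiquitination, rose, with 44.0, 41.4 and 41.8 CPM in 8p libraries, against 17.7, 17.3 and 17.7 CPM in controls. That is a log2 fold change of 1.27 (edgeR adjusted p = 3.08e-09). The scaffold WDR5 fell by 1.25 and the chromatin reader CBX3 fell by 1.08 on the log2 scale; CBX3 shares its locus with HNRNPA2B1 on the other strand, which had 419% of its counts. The second that rose was MGA, the DNA-binding scaffold of the complex, at a log2 fold change of 0.49, named after its value was seen. MGA did not pass against a minimum of 1.5-fold (adjusted p = 0.887 with edgeR's glmTreat). Of 10 corepressors that pocket proteins and E2F recruit, 7 fell and 2 rose, with a median of -0.47, again beside 36.9% lower among all tested genes. The histone H3K9 methyltransferase SUV39H1 fell by 1.97, the deacetylase HDAC2 fell by 1.27 and the histone chaperone RBBP7 fell by 1.19 on the log2 scale. TXLNG, on the other strand, had 23.8% of the counts of RBBP7. SIN3B and ARID4A, both parts of SIN3 deacetylase complexes and named after their values were seen, rose by 0.77 and 0.83.

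Of 16 listed kinases, cyclins and inhibitors that set pocket protein phosphorylation, RB1 included, 13 were tested, of which 6 fell, 3 rose and 4 did not pass the test, close to the 36.9% lower and 74.7% called of all tested genes. CCNE1, a cyclin of CDK2, had 3.93, 2.82 and 2.43 CPM with 8p, against 30.2, 30.4 and 26.3 CPM in controls, a log2 fold change of -3.24 (edgeR adjusted p = 5.96e-11). CCNE2 fell by 3.01 on the log2 scale, and INTS8 on the other strand had 753% of its counts. CDKN1C (p57), an inhibitor of cyclin-CDK complexes, rose at a very low level, with 27, 12 and 37 counts in the 8p libraries, against 6, 1 and 0 counts in the control libraries. Its fitted log2 fold change of 3.85 (edgeR adjusted p = 1.41e-04) became 5.67 without control replicate 1, so the size of the CDKN1C change is poorly fixed. The second inhibitor that rose was CDKN1B (p27), at a log2 fold change of 0.54, named after its value was seen. CDKN1B did not pass against a minimum of 1.5-fold (adjusted p = 0.701 with edgeR's glmTreat). The other listed inhibitors, named after their values were seen, did not rise. CDKN2C fell by 0.47 on the log2 scale (edgeR adjusted p = 1.19e-05). CDKN1A and CDKN2D did not pass the test, at -0.08 and -0.12, and CDKN2A and CDKN2B had no counts. All 5 listed genes for the ubiquitin ligases that act on E2F proteins, or for regulators of these ligases, fell, with a median of -1.76. Among all tested genes 36.9% were lower, and the median was 0.03. CDC20, which activates the ligase of mitotic exit, fell by 3.84, CCNF (cyclin F), which marks E2F proteins for degradation, fell by 2.72, and SKP2 fell by 1.76 on the log2 scale.

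The listed target genes of E2F and DREAM moved in 1 direction. All 24 tested of 25 G1/S targets fell; their median log2 fold change was -2.34 and their range -5.45 to -1.38. UNG, the uracil DNA glycosylase, had 3.33, 2.64 and 3.51 CPM with 8p, against 79.2, 84.2 and 89.3 CPM in controls, a log2 fold change of -4.74 (edgeR adjusted p = 5.32e-14). CDC6, which loads the replicative helicase, had 4.79, 3.78 and 8.50 CPM with 8p, against 96.9, 95 and 105.6 CPM in controls. RRM2, the small subunit of ribonucleotide reductase, stood at the low end with -5.45. All 17 G2/M targets of DREAM fell as well, at a median of -2.85 and a range of -3.47 to -1.33. CCNB1, the cyclin of mitotic entry, had 18.0, 18.3 and 18.7 CPM with 8p, against 177, 184 and 200 CPM in controls. AURKB and CCNA2 had the same log2 fold change of -3.47 at 2 decimals; EXOSC9 on the other strand had 39.4% of the counts of CCNA2. Lower in all tested genes of both lists compares with 36.9% of all genes tested. The 7 apoptosis genes that E2F1 is known to induce did not share a direction: 4 fell, 2 rose and 1 did not pass the test. Among all tested genes, 36.9% were lower and 37.9% higher. TP73, the p53 relative, fell by 2.05 (WRAP73, on the other strand, had 739% of its counts), and PMAIP1 (NOXA) fell by 0.83 on the log2 scale. The 2 that rose, the BH3-only genes BBC3 (PUMA) and BCL2L11 (BIM), named after their values were seen, had log2 fold changes of 0.70 and 0.81. Against a minimum of 1.5-fold, BBC3 did not pass (adjusted p = 0.109 with edgeR's glmTreat) and BCL2L11 did.

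**Figure D5:**
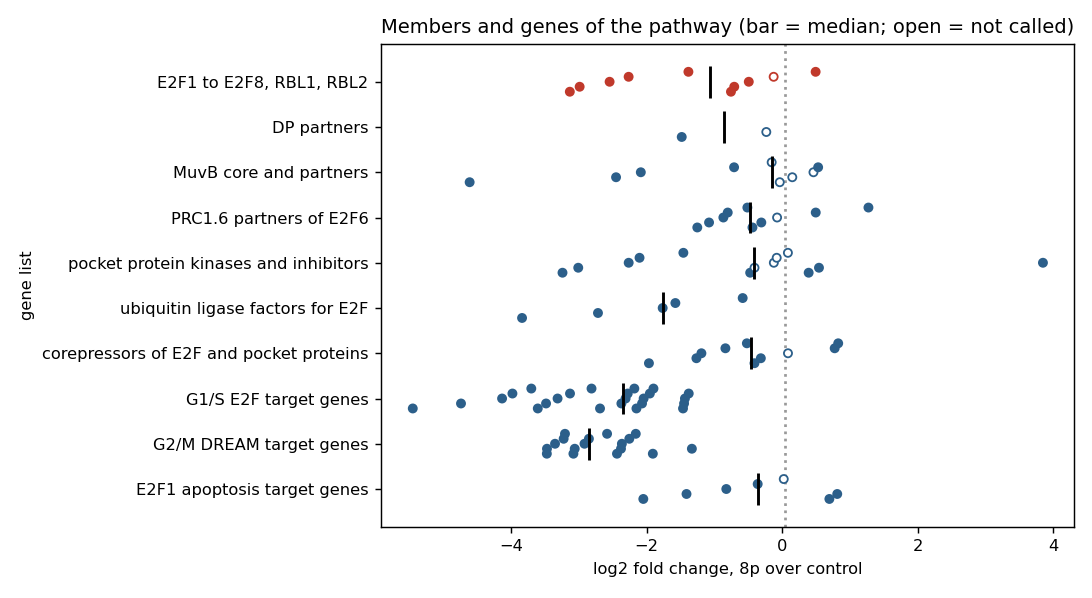
Log2 fold changes, 8p over control, of the members and of the tested genes of each list, 1 point per gene, open where not called, with a bar at each list's median. The G1/S and G2/M target lists lie wholly below 0 with medians of -2.34 and -2.85, and the apoptosis list lies on both sides of 0.

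Of the 20 G1/S targets with a RefSeq window, 12 had at least 1 E2F match and 7 had 2 or more. Among all RefSeq windows these shares were 8.67% and 0.681%. Of the 13 G2/M targets with a window, 8 had a CHR match and 2 an E2F match. A CHR match stood in 16.4% of all windows. These lists hold known targets, so such matches were likely from the start and are not a result of these data. Across all tested protein-coding genes, 9374 of 11500 (81.5%) had a window under their symbol. The 8077 without an E2F match had a median log2 fold change of -0.05, the 1172 with 1 match -0.23, and the 125 with 2 or more -0.45. Falls that were called made up 41.0% of the genes without a match, 49.1% with 1 match and 56.0% with 2 or more. Calls of at least 2-fold lower made up 18.2%, 23.5% and 34.4% in the same order. E2F1, E2F2, E2F3, E2F6 and RBL1 belong to the last group and lie between -3.14 and -0.49, while E2F7, with no match, fell by 2.27. Genes are not replicates, the median GC content of the windows was 65.3%, 64.7% and 64.0% in these groups, and no test was made of the differences.

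Genes were ranked by likeness to the member that rose most and the member that fell most, as the root mean square difference of mean-centred log2 CPM over the 6 libraries, among other tested protein-coding genes. The nearest to E2F1 was TK1, thymidine kinase, itself one of the G1/S targets, with a difference of 0.0602 and 15.9, 12.2 and 13.1 CPM with 8p, against 113, 119 and 129 CPM in controls. RUVBL1 (0.0839), an ATPase of chromatin remodelling complexes, and CCDC167 (0.0946) came next, and SEC61A1 on the other strand had 296% of the counts of RUVBL1. The nearest to RBL2 were FLCN (0.022), the folliculin tumour suppressor, ERCC5 (0.023), a nucleotide excision repair endonuclease, and HECTD3 (0.0247), a ubiquitin ligase. Their log2 fold changes were 0.47, 0.50 and 0.49. MPRIP on the other strand had 266% of the counts of FLCN, and BIVM on the same strand 110% of those of ERCC5. Likeness over 6 libraries in 2 groups follows mainly the difference between the groups.

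Of 10 MOLM-13 identity markers, 6 were higher, 2 lower and 2 not called, beside 37.9% higher and 36.9% lower among all tested genes. LYZ (log2 fold change 1.84), CEBPA (1.42) and FLT3 (0.77) changed most. The 2 lower, named after their values were seen, were CD33 (-0.50) and HOXA9 (-0.42). HOXA10 on the same strand had 37% of the counts of HOXA9. The summed level of the 10 was 5301 to 5920 CPM with 8p and 2199 to 2320 CPM in controls. Most of the 8p sum was LYZ, at 3308 to 3973 CPM with 8p and 971.6 to 1083 CPM in controls. Of 13 markers of other cell types, 4 were tested, and EPCAM, COL1A2, HBB and HBA1 were among those with no counts. The summed level of these 13 was 30.2 to 40.0 CPM with 8p and 5.10 to 5.71 CPM in controls. Most of the 8p sum was COL1A1 (31.8 ± 5.99 CPM with 8p and 0.542 ± 0.297 CPM in controls, SD, n = 3 each). The largest part of the control sum was CD3D, which was lower with 8p (0.481 ± 0.287 CPM with 8p and 3.01 ± 0.644 CPM in controls, SD, n = 3 each). KRT8 was higher at a log2 fold change of 1.11 (edgeR adjusted p = 0.0172), but not without 8p replicate 1 (0.0635) or control replicate 2 (0.102). Nor was it called with DESeq2 (adjusted p = 0.067) or against a minimum of 1.5-fold (adjusted p = 0.0762 with edgeR's glmTreat). KRT18 on the other strand had 432% of the counts of KRT8. The part of other cells in the results was not tested.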

How the data were processed

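RNA of 3 8p and 3 control MOLM-13 cultures was measured by mRNA sequencing. The deposited values are raw counts per gene for all 6 libraries in 1 table, made by the authors; HISAT2 2.0.5, featureCounts 1.5.0-p3, DESeq2 1.20.0, edgeR 3.22.5 and the hg38 build are named, without roles, per the submitters' processing notes. The labels do not settle whether poly(A) capture or rRNA removal was used, describe a DNA extraction, and do not give the strand setting.

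The members and the gene lists were chosen with earlier results of these data known. Counts were tested with edgeR 4.0.16 (R 4.3.3): filterByExpr, TMM, glmQLFit and glmQLFTest with group as the only term, and Benjamini-Hochberg adjustment over 13822 genes at 0.05. Standard errors are the absolute log2 fold change over the square root of F; intervals are at 95%. TPM were computed from counts and the table's gene lengths. Likeness used log2 CPM with a prior count of 2. Motifs were counted in RefSeq promoter windows by symbol. Named genes are the members, TFDP1, TFDP2, RB1, up to 3 called genes per list with the largest change, 3 likeness genes for each of RBL2 and E2F1, and genes overlapping a member; others are named as chosen after their values were seen. Some listed genes are not reported here by name. The fit was tested on simulated data. DESeq2 1.42.0, limma-voom (limma 3.58.1), other scalings and filters, a replicate block, stricter thresholds and each library left out were alternatives.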

Additional observations from a re-analysis of the deposited data

How the results depend on the processing

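The 9 member calls kept their direction and their side of the threshold with DESeq2, limma-voom, every other scaling and filter, an adjusted p under 0.01 and each library left out. E2F1 ranged from -3.26 to -2.95, E2F2 from -3.11 to -2.80 and RBL2 from 0.38 to 0.68 on the log2 scale. Exceptions came with a minimum change of 1.5-fold (edgeR's glmTreat), a stricter test by construction: 6293 genes were called, 3229 higher and 3064 lower, and 6 members, all lower, with 0 higher, since RBL2, E2F3 and E2F6 (adjusted p of 0.935, 0.898 and 0.108) no longer passed. E2F5, not called under any alternative, had log2 fold changes of 0.0602 with upper quartile scaling (adjusted p = 0.789) and 0.0771 without control replicate 3 (0.723), within -0.2657 to 0.0771 over the libraries left out. Upper quartile scaling moved the median of all genes to 0.22, against 0.03 with TMM. Without gene length, the share of E2F1 to E2F3 differed by -5.063 percentage points, in place of -10.17, since the genes differ in length. Same-numbered libraries showed no sign of pairing (their deviations from the group means correlated at 0.0102, -0.0469 and -0.0639). With 3 libraries per group, such values cannot decide whether the cultures were paired. With a replicate block, 10090 genes and the same number of members, 9, were called. The counts of CDKN1C, at most 6 per control library, limit its precision.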
